A study of Homo sapiens with 12 samples.

Results

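The genes described here are 38 genes of the Fanconi anaemia pathway and of homologous recombination, the routes by which cells repair DNA interstrand crosslinks and double-strand breaks. They were chosen by name, as genes whose products act in these routes, by a rule that uses no measured value but was set with earlier results of these data known. They are 38 of the 26334 genes in the count tables, and each of the 38 had enough reads to be among the 15352 genes tested for expression. RNA was sequenced from A549 cells, a human lung adenocarcinoma line, which a lentivirus had given one of a pair of shRNAs. One was a control (shControl) and the other targeted RNF113A (shRNF113A), whose product is a RING finger protein of the spliceosome. All cells were selected with puromycin at 1 µg/ml for 4 days. They were then left untreated or treated with Cisplatin, a platinum drug that crosslinks DNA, at 25 µg/ml for 20 h in full growth medium. Each of the 4 conditions had 3 biological replicates, which gives 12 libraries. Only 1 cell line was sequenced, and the labels name no second shRNA, so the effect of the shRNA and of the depletion it causes cannot be told apart. Depletion below means shRNF113A against shControl.

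In the Fanconi anaemia pathway, a core complex of FANC proteins recognises a replication fork stalled at a crosslink and attaches ubiquitin to FANCD2 and FANCI. The ubiquitinated pair brings in nucleases that unhook the crosslink, and the break that remains is repaired by homologous recombination. There the broken ends are resected to single strands, BRCA1, BARD1, PALB2 and BRCA2 load the recombinase on them with the help of its paralogues, the strands invade the sister chromatid, and the joined molecules are taken apart by dissolution or cut by resolving nucleases. Cells that lack members of the pathway are known for their high sensitivity to crosslinking drugs such as Cisplatin.

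The libraries held 33859097 to 56071514 read pairs, of which 26220526 to 45721152 were assigned to a gene on its own strand. RNF113A was at 19.5 to 20.3 CPM (read pairs of a gene per 1e6 assigned, after scaling) in untreated shControl cells and at 15.3 to 16.8 CPM in untreated shRNF113A cells, without overlap (log2 fold change −0.31, SE 0.09, adjusted p = 0.0247 in edgeR's quasi-likelihood test). In Cisplatin-treated cells it was at 27.7 to 31.5 CPM in shControl and at 24.3 to 29.9 CPM in shRNF113A cells, which overlap (adjusted p = 0.2325). KRT8 and KRT18, keratins of epithelial cells, were at 1936 CPM or more and at 1402 CPM or more in every library, and CDKN2A, a gene that A549 cells are known to lack, was at 0 in all 12. Of the other epithelial markers, KRT19 was at 0.673 to 5.32 CPM and EPCAM at 3.66 to 97.6 CPM. The 8 epithelial and A549 markers summed to 11667 to 20461 CPM in untreated and to 7214 to 11239 CPM in treated shControl cells, and to 16087 to 17339 and 7666 to 8181 CPM in shRNF113A cells. The part of this shift in the members' changes was not tested. The 5 leukocyte markers summed to at most 4.59 CPM and the 3 endothelial markers to at most 0.788 CPM. The 7 fibroblast markers summed to 36.7 CPM in replicate 2 of untreated shControl cells and to 6.14 to 15.2 CPM in the other libraries. Most of these sums was COL1A1, at 3.32 to 34.85 CPM over the 12 libraries. LUM was at 0.166 to 2.71 CPM, and each other fibroblast marker was at most 0.599 CPM. Replicate 2 of treated shControl cells had the highest fibroblast sum of its condition, 15.2 CPM against 7.26 and 7.85 CPM. It also had the lowest epithelial sum, 7214 CPM against 11239 and 9575 CPM, and the highest sum of the 38 members, 1869 CPM against 1806 and 1831 CPM. Replicate 2 of untreated shControl cells, with the lowest epithelial sum of its condition at 11667 CPM, stood apart in other ways. Its 38 members summed to 1777 CPM against 2195 and 2042 CPM in the other replicates of its condition, 34 genes of S phase to 4798 CPM against 6017 and 5716 CPM, and 30 genes of G2 and mitosis to 5493 CPM against 6786 and 6439 CPM. Counts of changed members without this library are given with the counts over all 38. The shares of all genes beside them come from the fit to all 12 libraries, not from a fit without it.

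Among the 38 genes, read density over exons in untreated shControl cells ran from 51.1 ± 6.69 exonic reads per kilobase of exon and 1e6 reads for FANCI (SD, n = 3) to 1.65 ± 0.040 for RAD51B. RAD51C followed FANCI at 32.3 ± 1.53 and FANCG at 25.8 ± 3.41, and BRCA2 was next to last at 2.27 ± 0.23. The library ranges of neighbours in this order overlapped in 33 of 37 pairs. They did not overlap between FANCI and RAD51C, between RAD51C and FANCG, between RAD51D and BRIP1, or between BRCA2 and RAD51B.

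Which of these genes changed upon Cisplatin was asked first. Over both backgrounds 26 of 38 changed at an adjusted p under 0.05, 8 up and 18 down (27 without replicate 2 of untreated shControl cells, 7 up and 20 down), where 66.8% of all genes did (34.8% up and 32.1% down). In shControl cells 21 of 38 members changed at an adjusted p under 0.05, and among all genes tested 55.0% did. Of the members, 6 rose and 15 fell, and among all genes 28.0% rose and 27.0% fell. In shRNF113A cells 26 of 38 changed, against 60.2% of all genes, and 9 rose and 17 fell, against 32.4% and 27.8% of all genes. The median log2 fold change of the 38 was −0.14 in shControl and −0.19 in shRNF113A cells, and that of all genes −0.01 and 0.06. Most changes were small. Changes of at least 2-fold were found for 2 members in either background, FANCC and RAD51B, where 19.8% of all genes in shControl cells and 23.1% in shRNF113A cells passed this limit. The 3 treated libraries lay apart from the 3 untreated ones for 56.1% of all genes in shControl cells and for 74.2% in shRNF113A cells, so libraries that do not overlap are common here. Without replicate 2 of untreated shControl cells the counts were 24 and 30 members. The 55.0% and 60.2% of all genes are from all 12 libraries and are not the shares for these counts.

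Depletion was asked about in the same way. Over both treatments 17 of 38 changed, 5 up and 12 down (21 without replicate 2 of untreated shControl cells, 3 up and 18 down), where 47.5% of all genes did (23.5% up and 24.0% down). In untreated cells 9 of 38 members changed, 3 up and 6 down, against 27.4% of all genes, 12.8% up and 14.6% down. In Cisplatin-treated cells 17 changed, 4 up and 13 down, against 42.9% of all genes, 21.1% up and 21.8% down. BARD1 in Cisplatin-treated cells was the single member past 2-fold, where 12.3% of all genes were, and in untreated cells none was, where 8.66% of all genes were. The libraries of the 2 backgrounds lay apart for 43.3% of all genes in untreated and for 57.7% in treated cells. The median log2 fold change of the 38 was −0.06 in untreated and −0.17 in Cisplatin-treated cells, with all genes at 0.00 and −0.01. Without replicate 2 of untreated shControl cells, 15 members changed in untreated cells, 3 up and 12 down, and 23 in Cisplatin-treated cells. The 27.4% and 42.9% of all genes are from all 12 libraries and are not the shares for these counts. The untreated count was 5 without replicate 1 of untreated shRNF113A cells, and the Cisplatin-treated count was 11 without replicate 3 of Cisplatin-treated shRNF113A cells. Whether the Cisplatin effect itself differed between the backgrounds was tested as an interaction, which passed for 2 members, FANCC and RAD52, both lower, where 4.25% of all genes passed, 2.27% lower and 1.98% higher. The 4 comparisons share libraries and are not independent of each other.

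**Figure D1:**
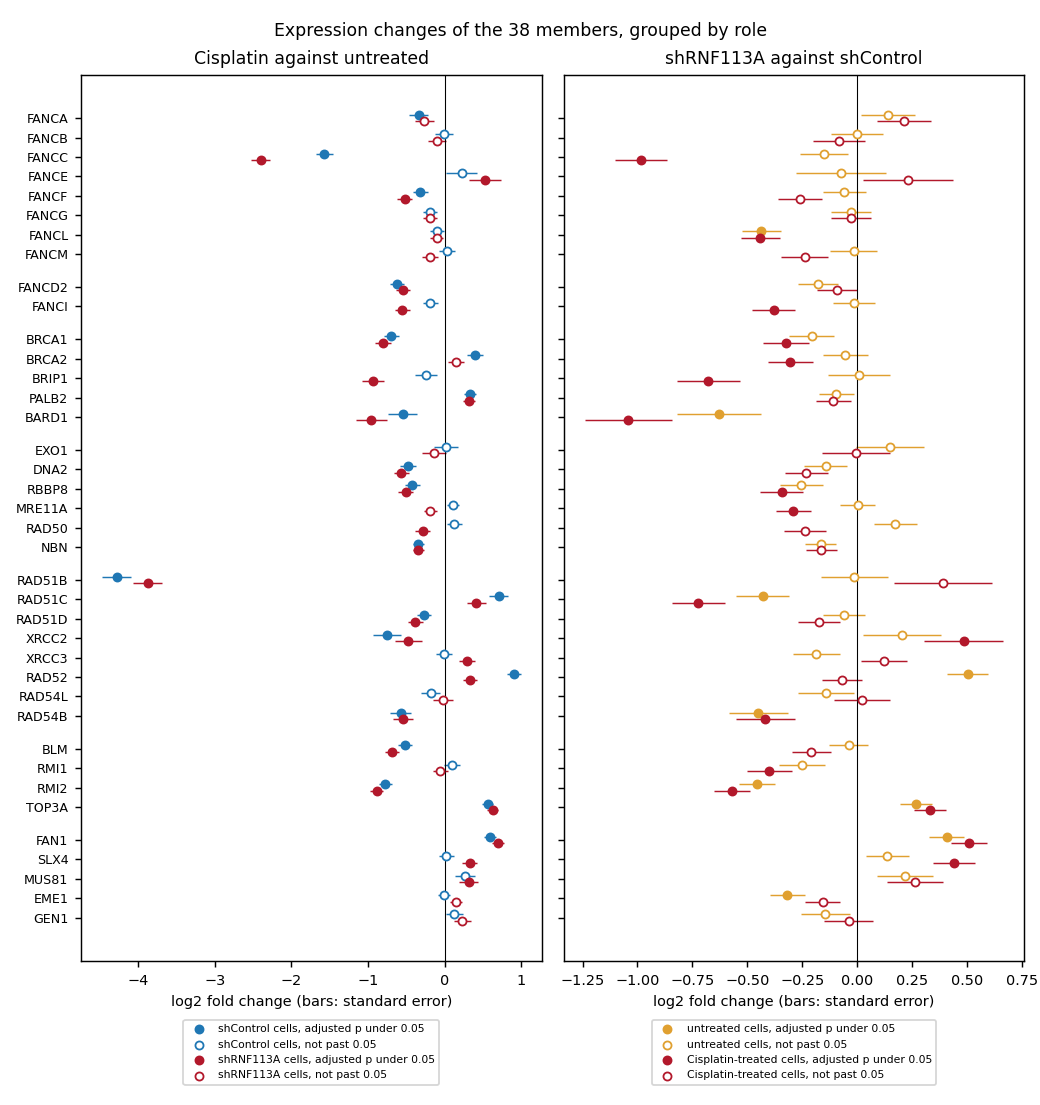
Log2 fold change of each of the 38 members (x axis, bars are standard errors) upon Cisplatin in shControl and shRNF113A cells (left) and upon depletion in untreated and Cisplatin-treated cells (right), in blocks by role, with filled points at an adjusted p under 0.05. RAD51B and FANCC lie far to the left of the other members in the Cisplatin panel, and BARD1, FANCC, RAD51C and BRIP1 fell most upon depletion in Cisplatin-treated cells.

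The Fanconi core complex had 8 members, of which 3 fell upon Cisplatin in shControl cells and none rose, where 27.0% of all genes fell and 28.0% rose. FANCC, an adaptor subunit that joins FANCE and FANCF in the complex, fell furthest. It was at 32.9, 29.7 and 30.3 CPM in untreated shControl cells and at 10.26, 10.99 and 10.05 CPM after Cisplatin. In shRNF113A cells it was at 27.2, 28.2 and 28.2 CPM untreated and at 5.39, 6.15 and 4.23 CPM after Cisplatin. The 4 conditions did not overlap, and the lowest level was that of treated shRNF113A cells. The fall upon Cisplatin was 2.97-fold in shControl cells (log2 fold change −1.57, SE 0.11, adjusted p = 2.77e-07) and 5.28-fold in shRNF113A cells (−2.40, SE 0.12, adjusted p = 1.55e-08). The difference between these changes was itself past the threshold (interaction −0.83, SE 0.16, adjusted p = 0.0187), and it missed it without replicate 1 of untreated shRNF113A cells (adjusted p = 0.0522). Depletion lowered FANCC in Cisplatin-treated cells (−0.98, SE 0.12, adjusted p = 8.11e-05), and in untreated cells the change was −0.15 (adjusted p = 0.33).

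The other core subunits moved less. FANCF, the intronless gene of a scaffold subunit, fell upon Cisplatin by 0.32 on the log2 scale in shControl cells (adjusted p = 0.0155) and by 0.52 in shRNF113A cells (adjusted p = 0.000679). FANCA, a large scaffold subunit, fell by 0.34 in shControl cells (adjusted p = 0.0345, kept in 7 of 12 fits that each left out 1 library), and its change in shRNF113A cells was −0.27 (adjusted p = 0.0793). FANCE rose by 0.53 in shRNF113A cells (adjusted p = 0.0421), and did so in 4 of the 12 fits. FANCL, the ubiquitin ligase subunit that modifies the ubiquitinated pair, did not pass for Cisplatin, but fell upon depletion by 0.44 in untreated and by 0.44 in Cisplatin-treated cells (adjusted p = 0.00336 and 0.00189). Its 3 untreated shControl libraries, at 32.9 to 42.3 CPM, were all above its 3 untreated shRNF113A libraries, at 26.6 to 28.2 CPM. FANCB, FANCG and FANCM passed in none of the 4 comparisons, with log2 fold changes between −0.24 and 0.03. Over both backgrounds FANCG fell by 0.19 upon Cisplatin (edgeR adjusted p = 0.0203).

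Both members of the ubiquitinated pair fell upon Cisplatin in shRNF113A cells, where 27.8% of all genes fell. In shControl cells FANCD2 alone passed, where 27.0% of all genes fell. FANCD2 fell by 0.63 on the log2 scale in shControl cells (SE 0.09, adjusted p = 9.92e-05) and by 0.54 in shRNF113A cells (SE 0.09, adjusted p = 0.000271), from 77.02 to 95.73 CPM down to 52.3 to 58.4 CPM in the shControl libraries. FANCI, its partner, fell by 0.55 in shRNF113A cells (adjusted p = 0.00035), with −0.19 in shControl cells (adjusted p = 0.117), and depletion lowered it by 0.38 in Cisplatin-treated cells (adjusted p = 0.00798). The interaction for FANCI was −0.36 and did not pass (adjusted p = 0.148).

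The BRCA group holds the mediators that load the recombinase. BRCA1, a ubiquitin ligase that promotes resection and recombination, was at 121, 101 and 118 CPM in untreated shControl cells and at 63.1, 77.1 and 69.6 CPM after Cisplatin. In shRNF113A cells it was at 104, 96.5 and 93.2 CPM untreated and at 58.7, 59.8 and 49.0 CPM treated. Treated libraries were below untreated ones in both backgrounds, and the fall was 0.69 on the log2 scale in shControl cells (SE 0.10, adjusted p = 0.000114) and 0.81 in shRNF113A cells (SE 0.10, adjusted p = 2.89e-05). BARD1 encodes the obligate partner of BRCA1 in its ligase.

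BARD1 was at 29.3, 14.5 and 23.1 CPM in untreated shControl cells, at 16.6, 13.95 and 15.2 CPM after Cisplatin, at 14.3, 14.1 and 14.9 CPM in untreated shRNF113A cells and at 7.30, 8.13 and 6.77 CPM in treated ones. The treated shRNF113A libraries were below all others, while replicate 2 of untreated shControl cells lay among the treated shControl and untreated shRNF113A libraries. BARD1 fell upon depletion by 1.04 on the log2 scale in Cisplatin-treated cells (SE 0.20, adjusted p = 0.00148) and by 0.63 in untreated cells (SE 0.19, adjusted p = 0.0299, kept in 7 of 12 fits with 1 library left out). Upon Cisplatin it fell by 0.55 in shControl cells (adjusted p = 0.0287, kept in 8 of 12 such fits) and by 0.96 in shRNF113A cells (adjusted p = 0.00123), and the interaction did not pass (−0.41, adjusted p = 0.426).

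BRIP1, a helicase that binds BRCA1, was at 42.4, 38.9 and 39.99 CPM in untreated shControl cells and at 28.0, 41.2 and 33.2 CPM after Cisplatin, which overlap. In shRNF113A cells it was at 41.5, 42.9 and 37.5 CPM untreated and at 21.7, 24.6 and 17.6 CPM treated, without overlap. It fell by 0.93 in shRNF113A cells (SE 0.14, adjusted p = 0.000124), and its change in shControl cells was −0.25 (adjusted p = 0.157). The interaction was −0.69 and did not pass (adjusted p = 0.0743). The remaining mediators had changes above 0 upon Cisplatin. BRCA2, which carries the recombinase to the single strand, rose by 0.40 in shControl cells (adjusted p = 0.00548), and its change in shRNF113A cells was 0.14 (adjusted p = 0.24, with overlapping libraries). PALB2, which ties it to BRCA1, rose by 0.33 in shControl and by 0.32 in shRNF113A cells (adjusted p = 0.00311 and 0.00372). Depletion lowered BRCA1, BRCA2, BRIP1 and BARD1 in Cisplatin-treated cells, 4 of the 5 genes of the group, by 0.30 to 1.04, where 21.8% of all genes were lowered. Without replicate 3 of treated shRNF113A cells BRCA1 and BRCA2 no longer passed, nor did BRCA2 without replicate 3 of treated shControl cells.

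Of the 6 genes of end resection, 3 fell upon Cisplatin in shControl cells and 4 in shRNF113A cells, and none rose, where 27.0% and 27.8% of all genes fell and 28.0% and 32.4% rose. DNA2, a nuclease and helicase of long-range resection, fell by 0.48 and 0.57 (adjusted p = 0.00128 and 0.000342). RBBP8, which encodes the CtIP protein that starts resection, fell by 0.42 and 0.51 (adjusted p = 0.0029 and 0.000719), and NBN, a subunit of the MRN complex that senses ends, fell by 0.35 and 0.34 (adjusted p = 0.0013 and 0.00124). RAD50, the ATPase of that complex, fell by 0.29 upon Cisplatin in shRNF113A cells (adjusted p = 0.0223). Depletion in Cisplatin-treated cells lowered RBBP8 by 0.34 and MRE11A, the nuclease of the complex, by 0.29 (adjusted p = 0.0146 and 0.0111), neither of which passed without replicate 3 of treated shRNF113A cells. EXO1, an exonuclease of long-range resection, passed in none, and its 3 untreated shControl libraries spread from 48.2 to 82.4 CPM.

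The strand exchange helpers held the largest fall of all 38 genes in both backgrounds and, in shControl cells, the 2 largest rises. RAD51B, a paralogue of the recombinase that acts in a complex with RAD51C, RAD51D and XRCC2, was at 8.57, 8.43 and 8.43 CPM in untreated shControl cells and at 0.447, 0.337 and 0.511 CPM after Cisplatin. In shRNF113A cells it was at 9.05, 7.53 and 8.61 CPM untreated and at 0.646, 0.433 and 0.636 CPM treated. These are 280 to 342 read pairs in each untreated library and 14 to 24 in each treated one. The fall was 19.4-fold in shControl cells (log2 fold change −4.28, SE 0.19, adjusted p = 5.3e-09) and 14.7-fold in shRNF113A cells (−3.88, SE 0.19, adjusted p = 1.44e-08), and the interaction did not pass (0.40, adjusted p = 0.436). Depletion moved it in neither condition past the threshold.

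RAD52, which anneals single strands, rose. It was at 15.2, 16.5 and 14.3 CPM in untreated shControl cells, at 25.5, 30.8 and 29.5 CPM after Cisplatin, at 21.0, 21.8 and 22.2 CPM in untreated shRNF113A cells and at 27.2, 28.7 and 25.8 CPM in treated ones. Untreated shRNF113A cells were above untreated shControl cells in every library, while the treated conditions overlapped. The rise upon Cisplatin was 0.90 on the log2 scale in shControl cells (SE 0.09, adjusted p = 5.18e-06) and 0.33 in shRNF113A cells (SE 0.09, adjusted p = 0.0079), and the interaction was −0.57 (SE 0.13, adjusted p = 0.0306). That interaction passed in 4 of 12 fits that each left out 1 library. Depletion raised RAD52 by 0.50 in untreated cells (adjusted p = 0.00193), and in Cisplatin-treated cells the change was −0.07 (adjusted p = 0.549).

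RAD51C, a paralogue that takes part in both paralogue complexes, rose upon Cisplatin and fell upon depletion. It was at 57.7 to 63.1 CPM in untreated and 85.8 to 123 CPM in treated shControl cells, and at 42.2 to 47.4 CPM and 57.3 to 62.5 CPM in shRNF113A cells. The rises were 0.70 and 0.41 (adjusted p = 0.00033 and 0.0106), and depletion lowered it by 0.43 in untreated and by 0.72 in treated cells (adjusted p = 0.0199 and 0.000629). XRCC2, a further paralogue, was at 28.3, 16.03 and 27.5 CPM in untreated shControl cells, at 15.4, 12.1 and 15.1 CPM after Cisplatin, at 25.3, 27.5 and 30.04 CPM in untreated shRNF113A cells and at 19.4, 20.25 and 19.98 CPM in treated ones. It fell upon Cisplatin in both backgrounds (−0.75 and −0.47, adjusted p = 0.00341 and 0.036, the second kept in 7 of 12 fits with 1 library left out), and was higher upon depletion in treated cells (0.48, adjusted p = 0.0464, kept in 3 of 12 fits with 1 library left out). RAD54B, a motor protein of strand exchange, fell upon Cisplatin by 0.57 and 0.54 (adjusted p = 0.00282 and 0.00389), and upon depletion by 0.45 in untreated and 0.42 in treated cells (adjusted p = 0.0252 and 0.0246, kept in 8 and 10 of 12 fits with 1 library left out). RAD51D, another paralogue, fell by 0.27 and 0.38 upon Cisplatin (adjusted p = 0.0313 and 0.00449), and the first of these calls was kept in 7 of 12 such fits and lost with the 6 libraries alone, with library size only and with no filter on low counts. RAD51D and RAD54B each overlap another protein-coding gene on the same strand, RAD51L3-RFFL and FSBP, so the assignment of their reads is uncertain. XRCC3, the partner of RAD51C in the smaller complex, rose by 0.29 in shRNF113A cells (adjusted p = 0.0289, kept in 6 of 12 such fits), and RAD54L, the other motor protein of the group, passed in none.

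**Figure D2:**
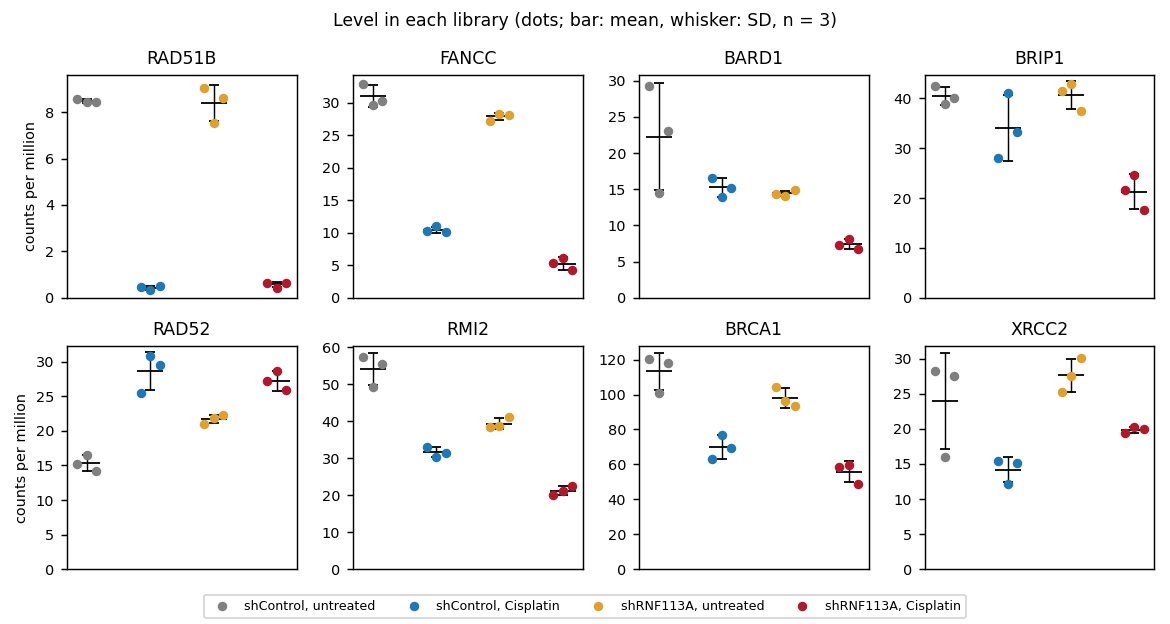
CPM (y axis, from 0) in each of the 12 libraries for 8 members, with the mean and SD of each condition (n = 3). RAD51B is below 1 CPM in all treated libraries, FANCC and BARD1 are lowest in treated shRNF113A cells, and RAD52 is lowest in untreated shControl cells.

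Dissolution is carried out by the helicase BLM with the topoisomerase TOP3A and the partners RMI1 and RMI2. Within these 4 subunits of 1 complex, changes upon Cisplatin went both ways. BLM fell by 0.52 in shControl and by 0.69 in shRNF113A cells (adjusted p = 0.00034 and 3.25e-05). RMI2 was at 57.5, 49.2 and 55.5 CPM in untreated shControl cells, at 33.0, 30.4 and 31.5 CPM after Cisplatin, at 38.4, 38.7 and 41.2 CPM in untreated shRNF113A cells and at 20.1, 21.2 and 22.5 CPM in treated ones. None of the 4 conditions overlapped for RMI2. It fell upon Cisplatin by 0.77 and 0.89 (adjusted p = 6.16e-06 and 1.91e-06) and upon depletion by 0.46 and 0.57 (adjusted p = 0.00147 and 0.000243). TOP3A rose upon Cisplatin, from 37.9 to 43.3 CPM to 58.6 to 63.4 CPM in shControl cells and from 48.2 to 51.4 CPM to 73.98 to 79.5 CPM in shRNF113A cells (0.56 and 0.63, adjusted p = 3.53e-05 and 1.22e-05), and it rose upon depletion by 0.27 and 0.33 (adjusted p = 0.017 and 0.00316). RMI1 fell upon depletion by 0.40 in treated cells (adjusted p = 0.00872) and over both treatments by 0.33 (adjusted p = 0.00372), and its change in untreated cells was −0.25 (adjusted p = 0.0916).

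Of the 5 nucleases and scaffolds that cut crosslinks and joined molecules, none fell upon Cisplatin, 1 rose in shControl cells and 3 rose in shRNF113A cells, where 28.0% and 32.4% of all genes rose. FAN1, a nuclease that the ubiquitinated pair recruits to crosslinks, rose by 0.59 in shControl and by 0.69 in shRNF113A cells (adjusted p = 6.2e-05 and 1.41e-05) and upon depletion by 0.41 and 0.51 (adjusted p = 0.00331 and 0.000483). Its levels were 36.6 to 41.3 CPM in untreated shControl cells, 53.6 to 63.9 CPM in treated shControl cells, 49.4 to 54.4 CPM in untreated shRNF113A cells and 79.9 to 85.2 CPM in treated shRNF113A cells. The 3 treated shRNF113A libraries were the 3 highest. SLX4, the scaffold on which several nucleases assemble, rose upon Cisplatin in shRNF113A cells by 0.33 (adjusted p = 0.0114) and upon depletion in treated cells by 0.44 (adjusted p = 0.00348). MUS81, which cuts branched DNA, rose by 0.31 upon Cisplatin in shRNF113A cells (adjusted p = 0.0496), a call kept in 2 of 12 fits with 1 library left out. EME1, its partner, fell by 0.32 upon depletion in untreated cells (adjusted p = 0.0118), and GEN1, a resolvase of joined molecules, passed in none. FAN1 and MUS81 overlap other genes on the opposite strand, and the counts are those of each gene's own strand.

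Untreated and Cisplatin-treated shControl libraries with the same replicate number deviated together, with r of 0.480 to 0.731. Libraries with different numbers reached 0.585, so the pairing is uncertain. A fit that pairs equal numbers was added once the data had been seen. With the replicate block in the fit to all 12 libraries, 22 of 38 members changed upon Cisplatin in shControl cells, against 21 without it, and MUS81 was the one gained (0.27, adjusted p = 0.0453). In the 6 shControl libraries alone, 18 changed without the replicate block and 21 with it, and MUS81 passed with it (0.28, adjusted p = 0.0185).

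Genes of the same pathways that are not among the 38 were counted from a list of 44, of which 40 were tested. Upon Cisplatin 7 rose and 19 fell in shControl cells, where 28.0% of all genes rose and 27.0% fell. In shRNF113A cells 8 rose and 16 fell, where 32.4% of all genes rose and 27.8% fell. The largest changes in shControl cells were those of BRE, a scaffold of a BRCA1 complex, at −2.73 (SE 0.14, adjusted p = 1.39e-08) and of ZRANB3, a fork remodelling translocase, at −2.06 (SE 0.14, adjusted p = 1.68e-07). Depletion in treated cells raised 6 and lowered 11, where 21.1% of all genes were raised and 21.8% lowered. In either direction that was 42.5% of the 40, against 42.9% of all genes, a like share. EME2, the other partner of MUS81, was at 1.27 (SE 0.21, adjusted p = 0.00057). Medians of the cell cycle genes lay further from 0 than that of the 38 members. Of 34 S phase genes, 3 rose and 22 fell upon Cisplatin in shControl cells with a median of −0.66, led by MCM6, a subunit of the replicative helicase, at −2.27. Of 30 genes of G2 and mitosis, 1 rose and 26 fell with a median of −0.69, led by the mitotic kinase PLK1 at −1.59. Many of the 38 members are known to be expressed mainly in S and G2 phase. In these bulk samples fewer cells in those phases and less RNA per cell cannot be told apart, and the part of the cell cycle in the members' changes was not tested.

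The members that fell furthest are long genes. RAD51B spans 910440 bases of chromosome 14 in hg19 (chr14:68286496-69196935, plus strand) and FANCC 218656 bases of chromosome 9 (chr9:97861336-98079991, minus strand), while their exons cover 4507 and 4745 bases. Upon Cisplatin in shControl cells, all 3 members above 200 kb fell, RAD51B, FANCC and RBBP8. Over all 1043 genes of that length the median log2 fold change was −1.32, with 10th and 90th percentiles of −3.70 and 0.10. Of the 6 members of up to 20 kb, 1 fell, FANCF, and none rose, where the median of 4836 genes was 0.15. In shRNF113A cells the medians of all genes were −1.64 above 200 kb and 0.30 up to 20 kb, and among the 6 short members 3 rose and 1 fell. The shares of all genes of these lengths that fell or rose were not counted, so these member counts are a description only. Across the 38 members, log10 span and log2 fold change upon Cisplatin had a Pearson r of −0.53 and a Spearman rho of −0.42 in shControl cells, and of −0.63 and −0.60 in shRNF113A cells. Without RAD51B and FANCC these were −0.19 and −0.32, and −0.41 and −0.53. Over all 13434 genes with an annotated span they were −0.37 and −0.35, and −0.47 and −0.46. These values come from the same libraries and describe genes, which are not independent replicates. In the fit that took both backgrounds together, 153 of 180 genes of at least 500 kb fell and 13 rose, with a median of −2.78, and RAD51B was at −4.08.

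**Figure D3:**
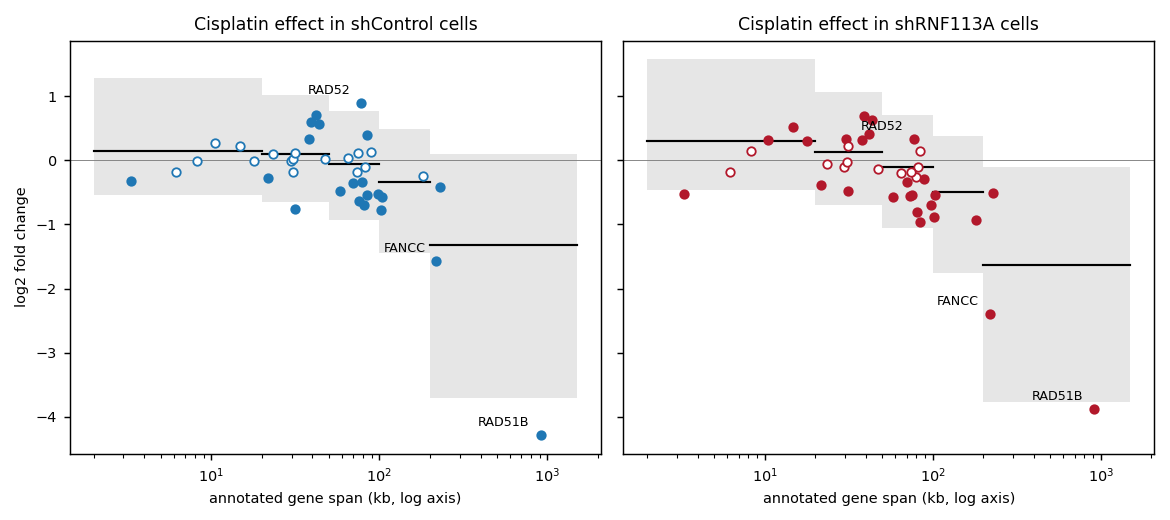
Log2 fold change upon Cisplatin (y axis) against annotated gene span in kilobases (x axis, log scale) for the 38 members in shControl (left) and shRNF113A cells (right), filled at an adjusted p under 0.05, over the median (black line) and the range from the 10th to the 90th percentile (grey) of all genes in 5 classes of span. RAD51B and FANCC are the lowest points in both panels, and the black lines step down with span.

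Many genes of S and G2 phase are known to carry binding sites of cell cycle factors in their promoters, so the promoters of the members were read for such sequences. The stretch of 250 bases before the transcription start was read from RefSeq (GRCh38.p14) for 33 of 38 members, and searched on both strands for motifs chosen after the values were known. TTCCCGC or GCGGGAA, a sequence of the type that E2F factors bind, was found in 10 of 33 members (30.3%) and in 6.66% of 27305 genes. The upstream stretches of the members held more G and C, a median of 64.8% against 58.0%. CCAAT was found in 13 of 33 members (39.4%) and in 37.0% of genes, and TTTGAA, the core of the cell cycle homology region, in 2 members (6.06%) and in 16.1% of genes. The 10 members with the E2F-type sequence included genes that fell and genes that rose upon Cisplatin, 4 and 2 in shControl cells, and the 23 without it had 7 that fell and 4 that rose. The 2 stretches printed next, with the motif in capitals, belong to subunits of the same complex of which one fell and the other rose. A match of letters is a description and not a binding site.
BLM, plus strand of chromosome 15: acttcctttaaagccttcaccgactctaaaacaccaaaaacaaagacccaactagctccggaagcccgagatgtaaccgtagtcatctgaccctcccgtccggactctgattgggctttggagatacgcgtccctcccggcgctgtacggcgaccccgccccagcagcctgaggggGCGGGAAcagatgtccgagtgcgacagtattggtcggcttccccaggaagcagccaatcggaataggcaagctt
TOP3A, minus strand of chromosome 17: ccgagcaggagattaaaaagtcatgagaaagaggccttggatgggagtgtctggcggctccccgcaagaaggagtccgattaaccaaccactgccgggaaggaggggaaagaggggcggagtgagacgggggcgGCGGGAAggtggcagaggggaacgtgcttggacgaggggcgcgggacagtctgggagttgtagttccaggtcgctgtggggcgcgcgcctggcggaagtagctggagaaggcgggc

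Since RNF113A belongs to the spliceosome, the reads in introns were compared with those in exons. The intronic ratio, the reads of a gene outside its exons against those inside, was tested for 35 members. FANCF has no intron, and RAD51D and RAD54B had fewer reads over the gene than over its exons, which their overlaps with other genes allow. Of the 38 members 15 overlap a protein-coding gene on the opposite strand, FANCI and MUS81 among them, and since the strand setting of these counts is not given in the sources used here, their intronic reads may include reads of that gene. Upon depletion in Cisplatin-treated cells the ratio rose for 32 of 35 members and fell for none, and among all genes tested it rose for 84.0% and fell for 0.228%. The median log2 change was 0.85 for members and 0.97 for all 10984 genes. In untreated cells depletion raised it for 10 members, against 29.8% of all genes (and 0.164% lowered), with medians of 0.41 and 0.47. That count ranged from 0, without replicate 2 of untreated shRNF113A cells, to 19, without replicate 2 or replicate 3 of Cisplatin-treated shControl cells, and it was 3 without replicate 2 of untreated shControl cells. Cisplatin raised the ratio for 18 members in shRNF113A cells, against 67.0% of all genes (and 0.737% lowered), and for 3 in shControl cells, against 18.4%. It lowered it for 1 member in shControl cells, RAD52, against 1.26% of all genes. The members' medians were 0.46 and 0.08, below those of all genes at 0.76 and 0.29. Without replicate 2 of treated shControl cells, 9 members passed upon Cisplatin in shControl cells, 8 up and 1 down. Over all genes, introns held 2.67%, 1.82% and 4.41% of reads in the 3 treated shControl libraries. They held 1.66% to 2.25% in untreated shControl, 3.03% to 3.97% in untreated shRNF113A and 7.09% to 7.39% in treated shRNF113A cells. The part of these library-wide differences in the members' ratios was not tested.

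**Figure D4:**
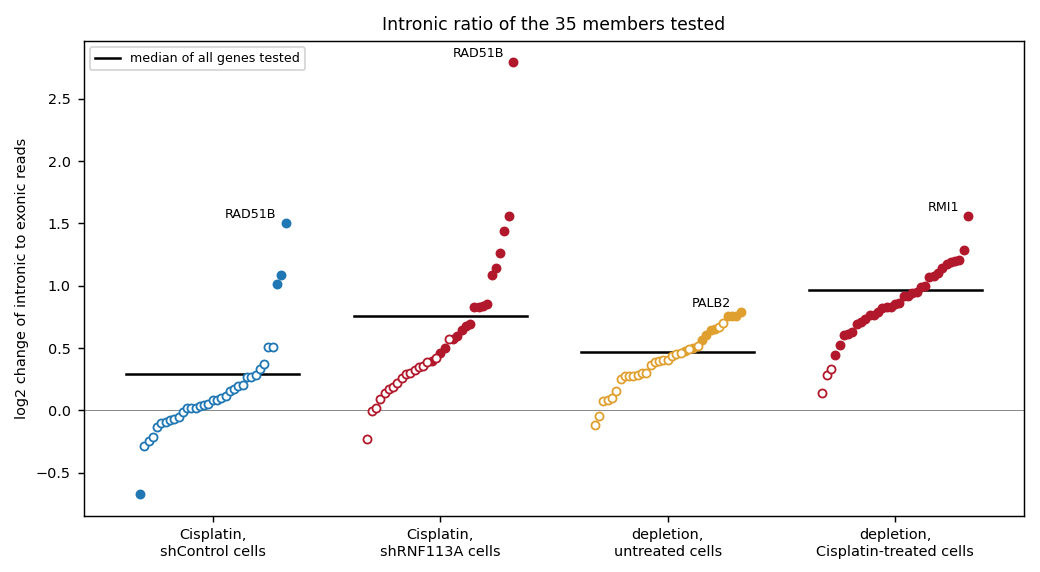
Log2 change of the intronic to exonic ratio (y axis) for 35 members in each of the 4 comparisons, sorted by size within each, filled at an adjusted p under 0.05. Black lines mark the median of all genes tested, and 32 of 35 points are filled for depletion in Cisplatin-treated cells, where all 35 lie above 0.

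The largest changes of the ratio were those of RAD51B, BLM, RMI1, RMI2 and BARD1. RAD51B had 70.65, 92.1 and 82.5 intronic reads per 100 exonic reads in untreated shControl cells and 285, 217 and 205 after Cisplatin. In shRNF113A cells it had 78.55, 73.5 and 72.5 untreated and 429, 682 and 507 after Cisplatin. The treated libraries were above all untreated ones, and the log2 changes were 1.5 (SE 0.27, adjusted p = 0.000418) and 2.79 (SE 0.26, adjusted p = 1.37e-08). Intronic and exonic reads of RAD51B both fell. Exonic reads went from 7.44 ± 0.18 to 0.352 ± 0.069 CPM in shControl cells and from 7.63 ± 0.45 to 0.484 ± 0.12 CPM in shRNF113A cells (SD, n = 3), and intronic reads from 6.08 ± 0.74 to 0.824 ± 0.18 CPM and from 5.72 ± 0.53 to 2.51 ± 0.29 CPM. The ratio in treated libraries rests on 11 to 20 exonic reads each.

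BLM had 6.35, 6.34 and 6.11 intronic reads per 100 exonic reads in untreated shControl cells, 11.8, 11.8 and 16.8 after Cisplatin, 8.22, 10.5 and 8.26 in untreated shRNF113A cells and 24.5, 24.6 and 30.9 in treated ones. None of these 4 conditions overlapped. Cisplatin raised the ratio by 1.09 and 1.56 on the log2 scale (adjusted p = 0.000384 and 1.06e-06), and depletion by 0.99 in treated cells (adjusted p = 0.000137). RMI2 rose by 1.02 and 1.44 upon Cisplatin and by 1.08 upon depletion in treated cells, and its span also holds the genes PRM1, PRM2, PRM3, SOCS1 and TNP2 on the opposite strand, whose reads its intronic reads may include. RMI1 had 6.22, 4.07 and 11.9 intronic reads per 100 exonic reads in treated shControl cells and 18.2, 21.6 and 22.6 in treated shRNF113A cells (log2 change 1.56, SE 0.28, adjusted p = 6.01e-05). BARD1 had 16.4, 8.52 and 14.75 in treated shControl and 29.2, 27.1 and 41.0 in treated shRNF113A cells, a log2 change of 1.28 (SE 0.26, adjusted p = 0.000157). For BARD1 the intronic reads were 2.025 ± 0.77 and 2.33 ± 0.35 CPM in these conditions and the exonic reads 15.1 ± 1.27 and 7.28 ± 0.74 CPM. FANCC, which also fell, rose in its ratio by 1.15 upon depletion in treated cells (adjusted p = 0.000742). RAD52 had 56.0, 48.5 and 58.3 in untreated shControl cells against 32.7, 26.6 and 44.4 after Cisplatin, a fall of 0.67 (SE 0.20, adjusted p = 0.0182), which missed the threshold in 3 of the 12 fits with 1 library left out. TOP3A, XRCC2 and BRCA2 did not pass upon depletion in treated cells (0.28, 0.14 and 0.33).

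Single splicing events of the members were tested from the inclusion and skipping reads of the authors' rMATS tables, in which the libraries of a condition are named a, b and c in table order. Between 495 and 551 member events of 33 to 35 genes were tested per comparison. At an adjusted p under 0.05 and mean inclusion levels at least 20 percentage points apart, 1 event was called upon Cisplatin in shControl cells and 2 in shRNF113A cells, against 0.0716% and 0.282% of all events. The adjusted p alone was passed by 1 and 5 member events, against 0.568% and 2.84% of all events. Upon depletion 0 of 519 events were called by edgeR in untreated cells, where 18 had an unadjusted p under 0.05. In treated cells 0 of 551 were called, where 4 passed the adjusted p alone and 41 the unadjusted one. Such unadjusted counts, here and below, include events that pass by chance, and their share among all events was not counted. Among all events 0.0596% and 0.182% were called in those comparisons, and 1.00% and 2.54% passed the adjusted p.

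Of 9 retained introns in 5 member genes, 3 passed the adjusted p upon Cisplatin in shRNF113A cells and 3 upon depletion in treated cells, against 17.1% and 28.2% of all retained introns tested. None passed upon Cisplatin in shControl cells or upon depletion in untreated cells, against 0.502% and 19.7%, where 1 and 3 had an unadjusted p under 0.05 in edgeR's test. None was called, that is also 20 points apart, in any of the 4 comparisons, against 0.0941% and 1.21% upon Cisplatin and 1.04% and 2.43% upon depletion. These were the same 3 introns, 2 neighbouring ones of MUS81 and 1 of FANCI, and all lie within the coding span of the gene. The MUS81 introns are printed whole because they are short, 201 and 74 bases where the median of 4360 retained introns in the tables was 256, with the terminal bases of each intron in capitals (hg19, chr11:65632287-65632487 and chr11:65632617-65632690, plus strand).
MUS81 intron of 201 bases: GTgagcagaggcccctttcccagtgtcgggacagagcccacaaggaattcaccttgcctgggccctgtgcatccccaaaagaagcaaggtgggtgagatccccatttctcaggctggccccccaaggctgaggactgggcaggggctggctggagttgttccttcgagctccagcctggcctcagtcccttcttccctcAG
MUS81 intron of 74 bases: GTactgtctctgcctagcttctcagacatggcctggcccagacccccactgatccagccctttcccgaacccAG
Both start with GT, end with AG and hold 61.7% and 60.8% G and C.

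The longer MUS81 intron was retained at 12.98%, 16.8% and 13.03% in untreated shControl cells and at 14.8%, 15.4% and 18.2% after Cisplatin. In shRNF113A cells it was at 22.997%, 14.7% and 16.2% untreated and at 24.6%, 39.9% and 28.03% treated. Treated shRNF113A cells were above every other library, and the increase was 12.9 points upon Cisplatin in shRNF113A cells (adjusted p = 0.00754) and 14.7 points upon depletion in treated cells (adjusted p = 0.017). The shorter intron was retained at 3.72%, 0% and 5.92% in untreated and 9.03%, 3.21% and 5.90% in treated shControl cells, and at 6.47%, 7.98% and 7.33% in untreated and 16.4%, 12.5% and 18.4% in treated shRNF113A cells. Its increases were 8.5 points upon Cisplatin (adjusted p = 0.00692) and 9.72 points upon depletion (adjusted p = 0.00598). The event of the shorter intron is defined on transcripts that keep the longer one within their exon, so the 2 events are not independent of each other. They rest on 53 to 136 inclusion reads for the longer intron and 9 to 43 for the shorter one in each treated library. Of 6 fits that each left out 1 library, the longer intron passed in 4 upon Cisplatin and in 3 upon depletion, and the shorter one in 4 and 5.

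The FANCI intron is 1300 bases long (hg19, chr15:89825067-89826366, plus strand), and its splice sites are printed with 10 exonic and 20 intronic bases and the terminal intronic bases in capitals.
FANCI 5′ splice site: tgtttgccaaGTatgtagcatctttttcta
FANCI 3′ splice site: cttctctatttctgagctAGccagcttgat
It was retained at 7.71%, 5.24% and 10.6% in treated shControl cells and at 13.8%, 16.0% and 10.9% in treated shRNF113A cells, from 9.04%, 9.76% and 8.85% in untreated shRNF113A cells. The treated shRNF113A libraries were the 3 highest, by a narrow margin over library c of treated shControl cells. The increase was 4.33 points upon Cisplatin (adjusted p = 0.0116) and 5.69 points upon depletion (adjusted p = 0.025), and it passed in 4 and 2 of 6 fits with 1 library left out.

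**Figure D5:**
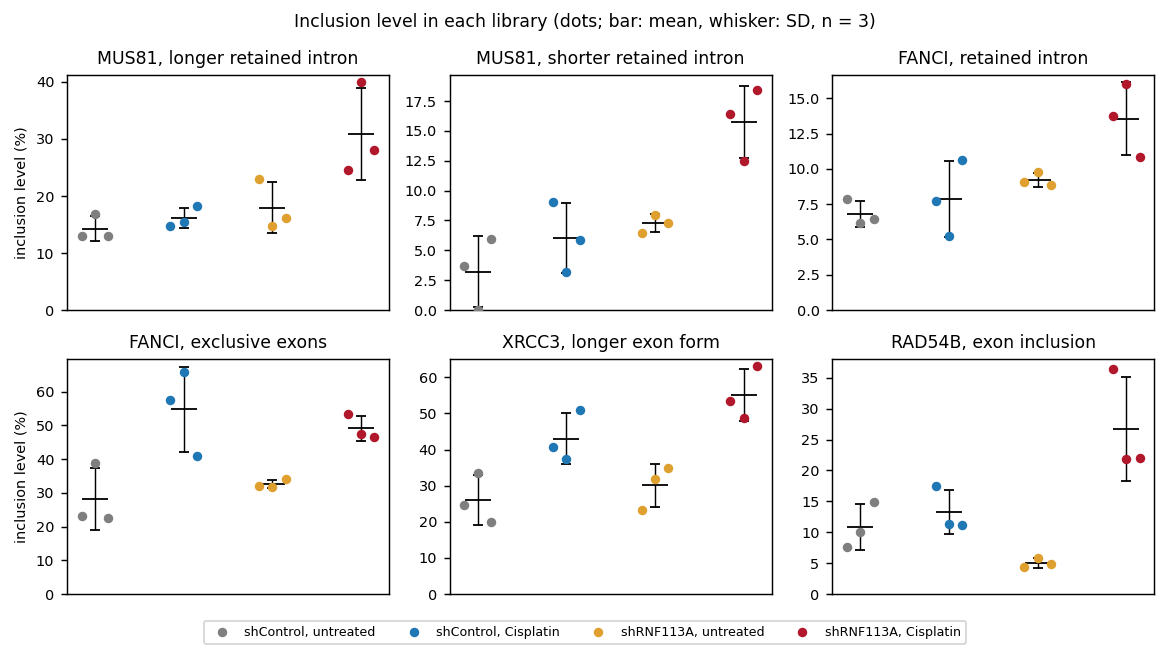
Inclusion level in percent (y axis, from 0) in each library, with the mean and SD of each condition (n = 3), for 6 splicing events of MUS81, FANCI, XRCC3 and RAD54B. The retained introns of MUS81 and FANCI and the RAD54B exon are highest in treated shRNF113A cells, and the FANCI exon choice and the XRCC3 exon form are higher in treated than in untreated libraries of either background.

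The 3 called events were of other kinds. XRCC3 has a choice of 3′ splice sites 94 bases apart before an exon in the 5′ untranslated region, and these are printed with 20 intronic and 10 exonic bases and the acceptor AG in capitals (hg19, chr14:104177989-104178018 and chr14:104177895-104177924, minus strand).
XRCC3 site of the longer exon: accttcctcccgtcccacAGgaagctgtct
XRCC3 site of the shorter exon: caccttcccactctttccAGagtccccagg
The longer exon was used at 23.4%, 31.9% and 34.97% in untreated and 53.3%, 48.8% and 62.98% in treated shRNF113A cells, an increase of 24.97 points (adjusted p = 0.0253). In shControl cells it went from 24.7%, 33.6% and 20.04% to 40.8%, 37.3% and 51.004%, without overlap and short of the threshold (adjusted p = 0.245). FANCI has a pair of mutually exclusive exons near its 5′ end, outside the coding span (chr15:89788426-89788542 and chr15:89788987-89789070). The first of them was used at 23.2%, 38.9% and 22.4% in untreated and 57.4%, 65.8% and 41.0% in treated shControl cells, an increase of 26.6 points (adjusted p = 0.0186), and at 31.8% to 34.03% and 46.6% to 53.3% in shRNF113A cells (adjusted p = 0.297). A cassette exon of RAD54B was included at 4.42%, 5.86% and 4.84% in untreated and 36.5%, 21.8% and 21.97% in treated shRNF113A cells, an increase of 21.7 points (adjusted p = 0.00238). In shControl cells it was at 7.63%, 10.0% and 14.9% untreated and 17.4%, 11.4% and 11.2% treated (edgeR adjusted p = 0.751). Untreated shRNF113A libraries, each with 5 inclusion reads, were thus below all untreated shControl ones, but the difference did not pass (edgeR adjusted p = 0.693). Depletion in treated cells raised it by 13.4 points without passing (edgeR adjusted p = 0.614). These events rest on 14 to 72 inclusion reads per library for XRCC3 and FANCI, and on 5 to 19 for RAD54B, and each lost its call in 2 to 4 of 6 fits that left out 1 library.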

How the data were processed

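RNA sequencing counts of 12 A549 libraries were used as the authors deposited them. Reads were trimmed to 73 nt and freed of rRNA, tRNA and mitochondrial sequences, and per the submitters' processing notes aligned to hg19 with STAR 2.5.2b. The deposited gene tables hold raw counts of read pairs, of which those on the strand of the gene were used. The authors counted exonic and whole-gene reads with HTSeq, whose strand setting is not given in the sources used here, and inclusion and skipping counts of splicing events with rMATS. The deposited p-value, FDR and inclusion score columns hold the authors' own comparisons and were not used, nor was the merged transcript annotation.

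Counts were tested with edgeR 4.0.16 in R 4.3.3 (quasi-likelihood F test), with TMM scaling and filterByExpr for expression only. Benjamini-Hochberg adjustment was over all genes tested for expression and for the intronic ratio. For splicing it was over the events of a single category within a comparison. The Cisplatin and depletion effects in single conditions and the interaction came from a fit of 4 conditions to all 12 libraries, and the effects over both backgrounds or treatments from a fit with additive terms for Cisplatin and depletion. Intronic reads were whole-gene minus exonic reads, tested against exonic reads with a term for each library, for genes with a mean of at least 10 reads of each kind. Inclusion was tested against skipping reads in the 6 libraries of a comparison, for events with at least 20 reads in each. A standard error was taken from the log2 fold change and the F statistic. Levels are TMM-scaled CPM. No column of unknown sample was met.

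Members and gene lists were chosen with earlier results of these data known. Values per library were given for the 8 members with the largest changes past the threshold, since 3 passed 2-fold, for the 5 largest changes of the intronic ratio and for called events. Retained introns with their sequences, the TOP3A promoter, the ratios of FANCC and RAD52 and values of other members in ranges were added after their values were seen. On simulated data 200 features were changed. The change was 2-fold for expression and the intronic ratio, and a log2 change of odds of 2 for events. Of these, 116 (interaction) to 167 (Cisplatin over both backgrounds) were recovered among 15352 genes and 125 to 140 among 10984 intronic ratios. For events, 173 were recovered among 3297 retained introns and 115 among 55338 skipped exons. False calls numbered 0 to 12. Smaller changes, which most members had, were not simulated. Deviations from the condition mean correlated across 9779 genes between equally numbered untreated and treated shControl libraries (r = 0.63, 0.73 and 0.48). Between libraries of these conditions with different numbers r reached 0.585, above the value of replicate 3. The pairing was taken from those values alone and is uncertain. Between untreated and treated shRNF113A libraries r was 0.41, −0.065 and 0.30, which was not taken as pairing.

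Alternatives were unstranded counts, library size only, RLE size factors, DESeq2 1.42.0, other filters on low counts, a replicate block, only the 6 libraries of a comparison, other limits on events and the omission of each library. Figures used matplotlib 3.10.9. The p-values measure the spread between replicates of 1 cell line.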

Additional observations from a re-analysis of the deposited data

Results flagged for a closer look

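In 2 of 38 members the Cisplatin effect on expression differed between the backgrounds by the interaction term of edgeR's quasi-likelihood test, where 4.25% of all genes did, a like share. FANCC fell further in shRNF113A than in shControl cells, with an interaction of −0.83 on the log2 scale (SE 0.16, adjusted p = 0.0187), and it was lower after Cisplatin in 3 of 3 libraries of either background. RAD52 rose less in shRNF113A than in shControl cells, with an interaction of −0.57 (SE 0.13, adjusted p = 0.0306), and it was higher after Cisplatin in 3 of 3 libraries of either background. With 1 library left out at a time, FANCC passed in 11 of 12 fits and missed the threshold without replicate 1 of untreated shRNF113A cells (adjusted p = 0.0522). RAD52 passed in 4 of 12 and missed it also with library size only (adjusted p = 0.0553).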

How the results depend on the processing

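Under no alternative did a called change of a member or event reverse. Of 192 such changes, 131 kept their call in every fit. The interaction passed for 1 member with library size only and for 4 with DESeq2, against 2. Depletion in untreated cells changed 5 members, against 9, in the 6 libraries of that comparison with the replicate block, a fit chosen after seeing the data. The block over all 12 libraries moved no count of members beyond 1.5 times (22 against 21 for Cisplatin in shControl cells). For splicing, Cisplatin in shRNF113A cells gave 5 events with no limit on the inclusion level, against 2, and depletion in treated cells gave 1 with a limit of 0.1 and 4 with none, against 0.

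When 1 library at a time was omitted, the counts of changed members ran from 25 to 28 (Cisplatin), 14 to 21 (depletion), 0 to 3 (interaction), 18 to 24 and 21 to 30 (Cisplatin in shControl and shRNF113A cells), and 5 to 15 and 11 to 23 (depletion in untreated and treated cells). For the intronic ratio they ran from 3 to 9, 13 to 22, 0 to 19 and 29 to 33 in the same order of the 4 comparisons. Called events ran from 0 to 1 and from 0 to 2 upon Cisplatin, and were 0 in each fit upon depletion. The cause of these shifts was not tested. No paired analysis was possible for the splicing tables because their columns carry no replicate numbers. RAD51B, with 14 to 24 read pairs in each treated library, is the member most limited by depth.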
